A study of Mus musculus with 2 samples.

Results

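Transcripts of 8 pancreatic serine protease precursors, the trypsinogens Prss1, Prss2, Prss3, Try4 and Try5 and the chymotrypsinogens Ctrb1, Ctrc and Ctrl, were examined in single cells of the mouse pancreas. The 8 genes were taken by name from the 14789 gene symbols of the deposited table. They were described in enzyme-rich cells, defined as cells with at least 10% of their unique molecular identifiers (UMIs, 1 per captured transcript) from the 8 genes and 7 other acinar enzymes together (Cela1, Cela2a, Cela3b, Cpa1, Cpb1, Pnlip and Clps). Of 728 cells, 276 (37.9%) were enzyme-rich and 452 were not. The high level of the 8 genes in enzyme-rich cells is therefore fixed by the definition and is given as a description.

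The cells came from the pancreas of adult Tff2CreERT2; R26-tdTomato mice given tamoxifen. Cre recombinase is active in these animals where the Tff2 promoter drives it, and it turns on a red fluorescent protein in those cells and their descendants. The sort kept EpCAM+ RFP+ cells that lacked CD45 and TER119, and these were processed on the 10x Genomics platform. The labels give 2 biological replicates of 1 group and no control, and they state neither the strain nor the time after tamoxifen.

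Trypsinogens and chymotrypsinogens are made by acinar cells, stored as inactive precursors in zymogen granules and secreted into the gut. Enteropeptidase cleaves trypsinogen there, and trypsin then activates chymotrypsinogen and the other zymogens. Premature trypsin activity inside the pancreas is a trigger of pancreatitis. The inhibitor SPINK1 restrains it, and chymotrypsin C degrades trypsinogen in humans.

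The table could not be divided by replicate. Barcodes carried the ending 1 or 2, which the labels do not tie to the 2 replicates, so all cells were treated as 1 pooled sample, no test was made, and 95% intervals are exact and cover counting error only. The 276 enzyme-rich cells held 1180863 UMIs (median 2101.5 per cell, 1004 to 53222), and the other 452 cells held 1172145 UMIs (median 2082). Ending 2 was found on 46 enzyme-rich and 15 other cells, and ending 1 on 230 enzyme-rich and 437 other cells. There were 7 barcodes that occurred under both endings, and all 14 of their cells were enzyme-rich. Among 9 acinar markers that the definition did not use, each had a higher level in enzyme-rich cells, for example Rnase1 with 24589 against 644 CPM (UMIs of a gene scaled to 1000000 UMIs of the set) and the acinar transcription factor Ptf1a with 51.7 against 0.853 CPM. Although the sort selected against blood cells, the other cells formed clusters with endothelial, B or plasma, T or NK and erythroid markers, as well as a ductal-like cluster of 36 cells.

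The 5 trypsinogen genes lie in 1 cluster on chromosome 6 (GRCm38, GENCODE M21). Try4 is at chr6:41302269-41305532 on the plus strand, Try5 at chr6:41311233-41316841 on the minus strand, Prss3 at chr6:41373814-41377678 on the minus strand, Prss1 at chr6:41458932-41463786 on the plus strand and Prss2 at chr6:41521787-41525079 on the plus strand. Ctrl (chr8:105932003-105933862) and Ctrb1 (chr8:111686519-111691010) lie on the minus strand of chromosome 8, and Ctrc (chr4:141814962-141846359) on the minus strand of chromosome 4. The first 90 coding bases of the 5 trypsinogens and of Gm10334, an annotated close copy, are shown to illustrate how alike these genes are. Where on the transcripts the counted reads fell was not examined. Capitals mark bases that differ from Try4:
Try4: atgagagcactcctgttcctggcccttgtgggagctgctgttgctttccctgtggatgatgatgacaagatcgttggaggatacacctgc
Try5: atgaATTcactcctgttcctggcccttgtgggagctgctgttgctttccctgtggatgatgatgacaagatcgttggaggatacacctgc
Prss1: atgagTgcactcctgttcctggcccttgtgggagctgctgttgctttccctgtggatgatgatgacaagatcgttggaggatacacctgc
Prss2: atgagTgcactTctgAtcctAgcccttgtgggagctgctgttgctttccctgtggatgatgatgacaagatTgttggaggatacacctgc
Prss3: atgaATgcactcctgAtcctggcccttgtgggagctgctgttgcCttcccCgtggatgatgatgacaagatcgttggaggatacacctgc
Gm10334: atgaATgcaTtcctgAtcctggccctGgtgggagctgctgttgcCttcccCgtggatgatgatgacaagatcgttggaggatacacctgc
Bases 55 to 69 of these 6 sequences are gatgatgatgacaag, the codons for the aspartate run and lysine after which enteropeptidase cleaves. The 3 chymotrypsinogens had no such run. Over the whole coding sequence the 10 pairs of trypsinogens were 89.1% to 97.4% identical (median 92.4%). Try4 and Try5 were the closest pair of members and shared an unbroken run of 274 transcript bases. Prss3 and Gm10334 were 99.1% identical and shared a run of 290 bases. The chymotrypsinogens were 72.1% to 74.8% identical in their 3 pairs, with shared runs of 12 to 23 bases. The handling of reads that fit several genes is not stated in the sources used here, so the split among trypsinogens is uncertain. The summed level of the 5 trypsinogens is given beside it, and this sum leaves out the close copies.

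In enzyme-rich cells the 8 genes together made up 32.0% of all UMIs (interval 31.9 to 32.1), against 0.803% (0.787 to 0.819) in other cells. The share in single cells had a minimum of 5.58%, a median of 32.8% and a maximum of 51.7% in enzyme-rich cells, against a minimum of 0.111%, a median of 0.744% and a maximum of 6.33% in other cells. The 3 chymotrypsinogens took 17.3% of UMIs in enzyme-rich cells and 0.382% in other cells. The 5 trypsinogens, without their close copies, took 14.7% in enzyme-rich cells and 0.421% in other cells. Over single enzyme-rich cells the median was 18.7% for the chymotrypsinogens, 13.6% for the 5 trypsinogens and 18.5% for trypsinogens and copies together. In other cells these medians were 0.345%, 0.387% and 0.511%. The gap between 17.3% and 14.7% thus holds for the 5 trypsinogens without copies, of which 2210010C04Rik alone had 42179 CPM in enzyme-rich cells. The highest cells of the other set lay within the range of the enzyme-rich cells, as the threshold cuts a continuous share. The 15 genes of the definition took 10.97%, 14.5%, 15.01%, 18.57% and 18.6% of UMIs in the 5 cells just inside the threshold, and 9.96%, 9.56%, 8.81%, 8.48% and 8.21% in the 5 just outside. In all, 18 cells lay from 5% to 20%. When the 7 other enzymes alone chose the cells, 270 cells passed, and all of them were among the 276.

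**Figure D1:**
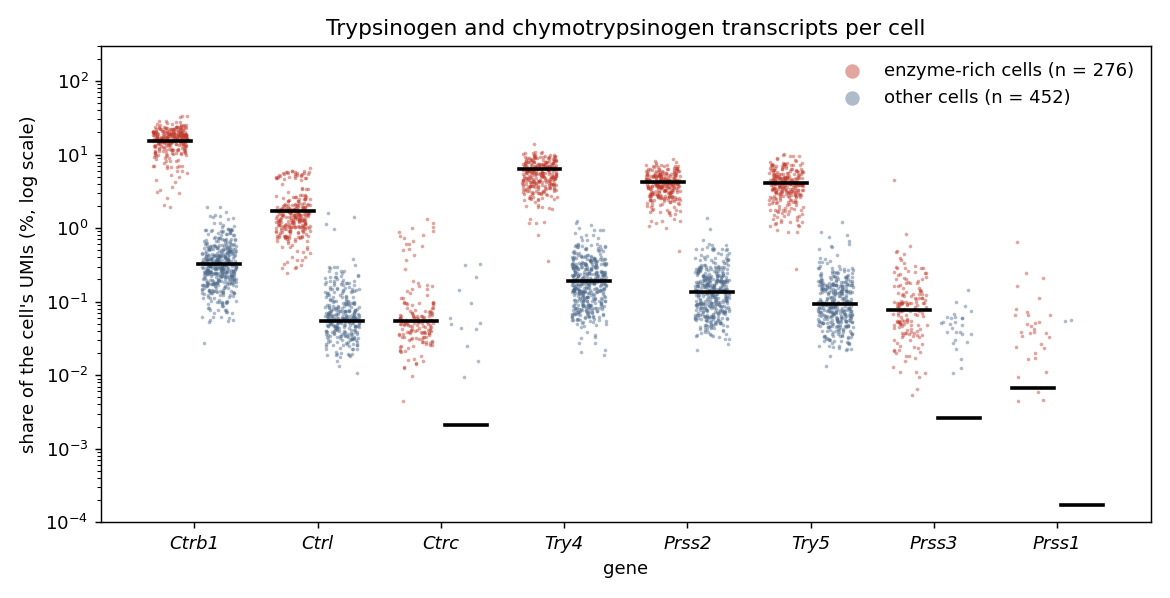
Share of each cell's UMIs from each gene (log axis), in enzyme-rich cells (red, left) and other cells (blue, right). Each point is a cell with at least 1 UMI of the gene, cells with 0 UMIs are not drawn, and black bars are shares of the summed UMIs. Ctrb1, Try4, Prss2, Try5 and Ctrl were seen in 276 of 276 enzyme-rich cells, whereas Ctrc, Prss3 and Prss1 were scattered.

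Ctrb1, which encodes chymotrypsinogen B, was the most abundant of all genes in enzyme-rich cells. It had 154901 CPM (154192 to 155613) in enzyme-rich cells and 3250 CPM in other cells, a ratio of 47.7 (46.2 to 49.2). In single enzyme-rich cells it took 1.95% to 33.8% of UMIs with a median of 16.7%, against a median of 0.302% and a maximum of 1.95% in other cells. The highest other cell stood slightly above the lowest enzyme-rich cell, so the ranges overlapped at their edges.

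Ctrl, a chymotrypsin-like protease precursor, ranked 16th of all genes, with 17252 CPM in enzyme-rich cells against 549 CPM in other cells, a ratio of 31.4 (29.1 to 34.1). Ctrc, the mouse relative of human chymotrypsin C, had 553 CPM in enzyme-rich cells and 21.3 CPM in other cells, a ratio of 25.9 (17.4 to 40.4), and ranked 112th. This ratio was 63.9 (34.6 to 134) at a threshold of 5%, 73.3 (33.4 to 201) in cells of at least 2000 UMIs and 16.8 (10.9 to 27.2) among cells with ending 1. Ctrl and Ctrc thus stood far below Ctrb1 in summed level.

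Among the trypsinogens Try4 led with 63018 CPM in enzyme-rich cells and 1903 CPM in other cells, a ratio of 33.1 (31.7 to 34.5). Prss2, the anionic trypsinogen, had 42807 CPM in enzyme-rich cells and 1356 CPM in other cells, a ratio of 31.6 (30.02 to 33.2). Try5 had 40821 CPM in enzyme-rich cells and 919 CPM in other cells, a ratio of 44.4 (41.8 to 47.2). Over single enzyme-rich cells Prss2 and Try5 had medians of 3.93% and 3.92%, so their order in the sums is small beside the spread between cells. Prss3 was far lower, with 759 CPM in enzyme-rich cells and 26.4 CPM in other cells, a ratio of 28.7 (20.1 to 42.5). Prss1 was the lowest, with 80 UMIs (67.7 CPM) in enzyme-rich cells and 2 UMIs in other cells, a ratio of 39.7 (10.6 to 333). Among cells with ending 2 the ratio of enzyme-rich over other cells was lower for most members (15 other cells), with 20.5 (18.6 to 22.8) for Ctrb1, 16.99 (14.2 to 20.5) for Prss2, 26.4 (21.0 to 33.8) for Try5 and 20.4 (14.6 to 29.4) for Ctrl. It was 11.2 (4.70 to 34.9) for Prss3, and for Prss1, with 8 UMIs against 1, it was 2.63 (0.353 to 117). Each UMI counts 1 transcript, so levels were compared between genes without scaling by length; the transcripts used for the alignments were 801 to 951 bases long in the 8 genes.

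All 8 genes passed a ratio of 2 in favour of enzyme-rich cells, a direction that 3.85% of the 3615 genes with at least 50 UMIs took, but the cells were chosen on these genes. Their median log2 ratio was 4.99, against -2.56 for all tested genes. Since enzyme transcripts fill most of the UMIs of enzyme-rich cells (58.8% at the median for the 15 genes), the share left for any other gene is smaller there by construction.

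The 3 low genes were also seen in few cells. Prss1 had a UMI in 32 of 276 enzyme-rich cells (11.6%) and in 2 of 452 other cells (0.442%). Prss3 had one in 157 enzyme-rich cells (56.9%) and in 28 other cells (6.19%), and Ctrc in 163 enzyme-rich cells (59.1%) and 13 other cells (2.88%). With each cell thinned to 1000 UMIs, the shares of enzyme-rich cells were 5.07% for Prss1, 37.0% for Prss3 and 35.5% for Ctrc, against 0.221%, 2.65% and 1.55% of other cells. The share in other cells serves as a measure of free RNA, and all 3 genes had higher shares in enzyme-rich cells. The definition of enzyme-rich cells includes these 3 genes, so this direction is no test. For Prss1 among cells with ending 2, the ratio of levels was 2.63 (0.353 to 117). For Prss1 and Prss3, the part of reads shared with other trypsinogens was not tested. The 10 cells with the most UMIs of a gene held 67.5% of the UMIs of Prss1, 47.1% of Prss3 and 34.3% of Ctrc, against 31.2% for Prss2, 31.02% for Try4 and 22.5% for Ctrb1. These cells were ranked by raw UMIs, so deep cells raise each of these shares. The share of all UMIs in the deepest cells is not given beside them.

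Some listed copies of the trypsinogens were as abundant as members. Of 11 listed copies, 7 had a row, and they were not equally close to the members. Gm10334 and Prss3 shared a run of 290 bases, but 2210010C04Rik and Prss2 a run of 26 bases. 2210010C04Rik, which also lies on chromosome 6 and is 78.7% identical to Prss2, had 42179 CPM (41810 to 42551) in enzyme-rich cells and 1183 CPM in other cells, with an interval that overlapped that of Prss2 (42435 to 43182) in enzyme-rich cells. The order turned between endings: in enzyme-rich cells with ending 2 it had 31218 CPM against 46884 CPM for Prss2, and in those with ending 1 it had 43562 CPM against 42293 CPM, with no overlap of intervals in either. Over single cells its rho with Prss2 was 0.05. Gm10334 had 1895 CPM and Try10 1203 CPM in enzyme-rich cells, against 33.3 and 27.3 CPM in other cells, so that both stood above Prss3 in enzyme-rich cells. The enzyme-rich cell with the most Prss3 held 68 Prss3 UMIs of 1504 (4.52%), and the same cell held 5.25% Gm10334 and 2.13% Gm5771. The median of Prss3 over enzyme-rich cells was 0.0256%. Gm5771 is 96.6% identical to Prss3 and 98.0% to Prss1. The part of shared reads in these values was not tested.

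Among the enzyme-rich cells, the 5 abundant members had positive rank correlations of unequal size. Spearman's rho of their shares of UMIs over the 276 cells was highest for Prss2 with Ctrl (0.62), followed by Prss2 with Try4 (0.59), Try4 with Ctrl (0.45), Prss2 with Try5 (0.42) and Ctrb1 with Ctrl (0.40). Ctrb1 with Try4 was lowest, at 0.16. Over the 46 cells with ending 2 alone, Ctrb1 had a rho of -0.27 with Try4, 0.05 with Prss2 and -0.01 with Try5, against 0.11, 0.30 and 0.24 over the 230 cells with ending 1. The 10 pairs of abundant members had a median of 0.35, and all 28 pairs had a median of 0.17, with 23 above 0. These values are descriptions: the cells share their library and differ in depth, and shares of 1 total are tied to each other. Taken per UMI outside the 15 enzyme genes, the median of the 10 pairs was 0.67 (0.53 to 0.80), and taken as a share of the 15 genes it was 0.10 (-0.33 to 0.39). The common part thus moved with the denominator.

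**Figure D2:**
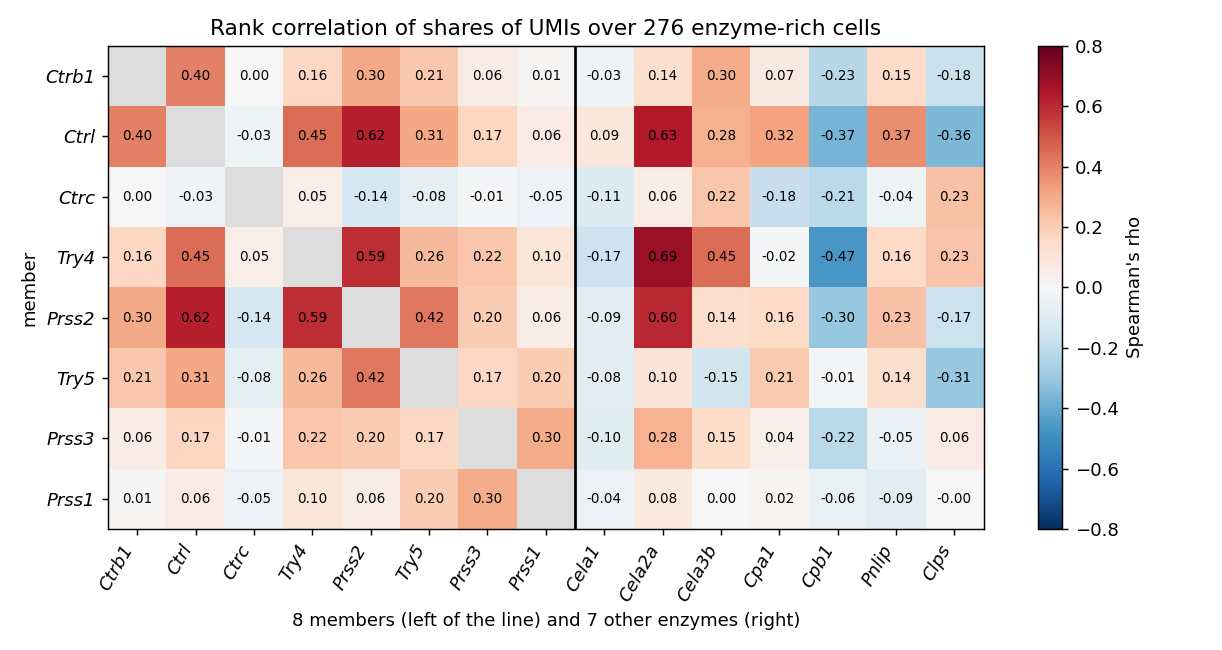
Spearman's rho of shares of UMIs over 276 enzyme-rich cells for each member (rows) with the other members (left of the line) and 7 other enzymes (right of it). Red is positive and blue negative; Prss2, Try4, Ctrl and Cela2a stand out as a positive set, while Cpb1 is negative with most members.

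Set against the 7 other enzymes, Cela2a, an elastase, stood closest to 3 members, with rho 0.69 for Try4, 0.63 for Ctrl and 0.60 for Prss2, but 0.10 for Try5 and 0.14 for Ctrb1. Carboxypeptidase Cpb1 ran opposite to Try4 (-0.47) and Ctrl (-0.37), and colipase Clps opposite to Ctrl (-0.36) and Try5 (-0.31). Among 337 genes outside the 15 with a UMI in at least 25% of enzyme-rich cells, the gene most like Try4 was Sycn, a zymogen granule protein (0.54). For Ctrl it was the lipase-related gene Pnliprp1 (0.58), and the lipase Cel had 0.43. The kallikrein Klk1 came first for Prss2 (0.42), Ctrb1 (0.42) and Try5 (0.34), and Gm10334 for Prss3 (0.54). For Ctrc the highest value was 0.26, with Atp5e, a subunit of ATP synthase.

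The 250 bases before the annotated start are shown for Prss2, Try4 and Ctrl, the members with the highest rho among themselves (RefSeq, GRCm38.p6). Capitals mark the E-box CACCTG, the T-rich box spelled TTTCCC and the TATA box spelled TATAAA, each on either strand. The acinar factor complex PTF1 binds an E-box together with a T-rich box. No match overlapped another in these windows:
Prss2, chr6:41521526-41521775, plus strand: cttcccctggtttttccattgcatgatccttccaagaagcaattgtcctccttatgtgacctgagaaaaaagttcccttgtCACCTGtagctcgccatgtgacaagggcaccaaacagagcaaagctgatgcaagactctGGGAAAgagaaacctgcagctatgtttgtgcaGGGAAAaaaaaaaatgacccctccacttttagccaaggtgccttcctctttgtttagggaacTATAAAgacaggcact
Try4, chr6:41302022-41302271, plus strand: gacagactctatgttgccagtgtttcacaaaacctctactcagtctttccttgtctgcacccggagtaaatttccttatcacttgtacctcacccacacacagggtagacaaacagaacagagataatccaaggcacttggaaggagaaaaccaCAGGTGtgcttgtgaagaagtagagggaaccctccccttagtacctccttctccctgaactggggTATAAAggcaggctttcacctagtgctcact
Ctrl, chr8:105933863-105934112, minus strand: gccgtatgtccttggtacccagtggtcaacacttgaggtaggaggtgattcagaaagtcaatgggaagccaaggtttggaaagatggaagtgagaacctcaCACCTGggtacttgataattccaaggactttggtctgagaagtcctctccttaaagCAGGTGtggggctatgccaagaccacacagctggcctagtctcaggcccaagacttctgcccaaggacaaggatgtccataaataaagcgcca
A promoter was at hand for 6 of the 8 members. The E-box was found in 5 of them, the T-rich box in 3 and the TATA box in 4, against 17.1%, 21.9% and 13.0% of all 27025 promoters of the same length. Of the 6, only Prss1 and Prss2 held both an E-box and a T-rich box, which 3.63% of all promoters did. Prss1 and Try4 held an E-box and a TATA box at the same positions, so promoters of related genes are not independent counts. Ctrl held the E-box 2 times and neither of the other motifs, Prss2 held all 3, and Try4 held an E-box and a TATA box. A match describes letters, and binding was not measured.

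Members also differed in how much they varied among cells. With counting error removed, the coefficient of variation of the share of UMIs was 34.4% for Ctrb1, 35.7% for Prss2, 39.7% for Try4, 44.8% for Try5 and 73.7% for Ctrl. It was 232% for Ctrc, 344% for Prss3 and 483% for Prss1. Ctrl therefore varied more than the other abundant members, and Ctrc far more than they did. Single cells weigh heavily on the values of Prss3 and Prss1. The highest cell stood at 4.52% against a mean of 0.0817% for Prss3, and at 0.642% against 0.00849% for Prss1. The Ctrc value includes the cells of high Ctrc described below.

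Ctrl made up 9.99% (9.86 to 10.1) of the chymotrypsinogen UMIs of enzyme-rich cells and 14.4% (13.3 to 15.4) of those of other cells. With ending 1 the share was 10.3% in enzyme-rich cells and 15.02% in other cells, but with ending 2 it was 8.06% (7.74 to 8.39) in enzyme-rich cells and 8.14% (5.73 to 11.1) in other cells. In single enzyme-rich cells this ratio had a minimum of 1.38%, a median of 8.28% and a maximum of 33.3%, with an interquartile range of 6.24% to 12.2%. Most cells formed a peak at 4% to 10%, with 173 cells in it, and a further group of 39 cells stood at 18% to 28%, with 11 cells between at 14% to 18%. The groups below were set after these values were seen.

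**Figure D3:**
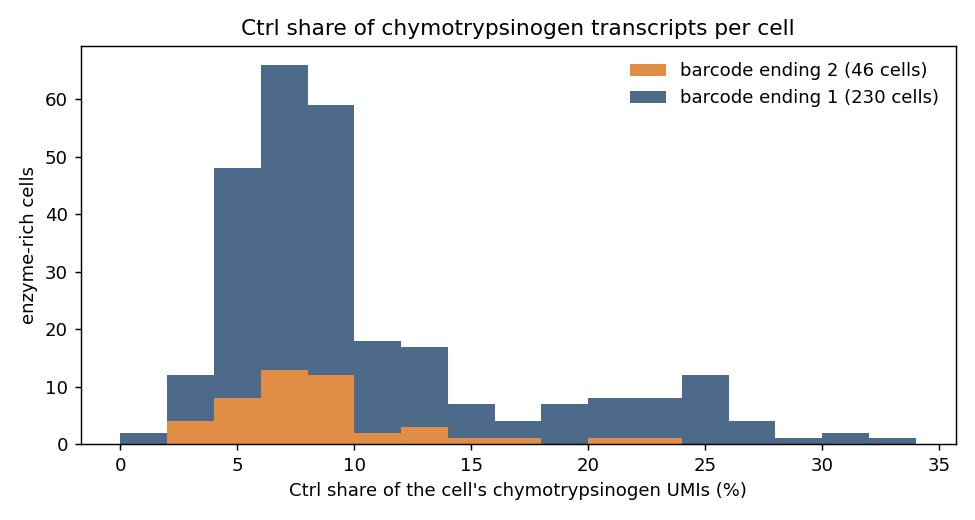
Number of enzyme-rich cells (y axis) by the Ctrl share of the cell's chymotrypsinogen UMIs (x axis, bins of 2 percentage points), stacked by barcode ending. The main peak lies at 4% to 10% and a smaller group at 18% to 28%.

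In the 36 cells at 20% or more, the median Ctrl level was 52466 CPM, against 13242 CPM in the 151 cells at 5% to 10%. The median of Cela2a was 85188 CPM in the 36 cells and 7808 CPM in the 151 cells, and that of Prss2 was 54787 CPM in the 36 cells and 37285 CPM in the 151 cells. Clps had a median of 16178 CPM in the 36 cells and 65143 CPM in the 151 cells, and Tff2 had 1719 CPM in the 36 cells and 6609 CPM in the 151 cells. Ctrb1 had a median of 166815 CPM in the 36 cells and 171885 CPM in the 151 cells. The summed Ctrb1 level of the 36 cells was 131810 CPM, but 156602 CPM without the deepest cell, which held 24421 UMIs at 70349 Ctrb1 CPM and was left out as a choice made after seeing the data. These 36 cells had a median of 1405.5 UMIs, against 2369 in the 151 cells. After thinning they had 102.5 genes at the median, against 200 genes, and mitochondrial transcripts had 26564.5 CPM, against 11426 CPM. Among the 36 cells, 2 had ending 2 and 34 had ending 1. The part of depth, gene number and mitochondrial share in the Ctrl-rich group was not tested.

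Ctrc was set apart by barcode ending. It had 2336 CPM (2083 to 2612) in the 46 enzyme-rich cells with ending 2 and 328 CPM (294 to 365) in the 230 with ending 1, a ratio of 7.12 (6.09 to 8.33). It was the 1 member of 8 at a ratio of at least 2 between endings, a size that 5.38% of 669 tested genes reached in this direction and 28.7% in the other. The other members had ratios of 1.86 (Prss3), 1.35 (Try4), 1.23 (Ctrb1), 1.11 (Prss2), 1.10 (Try5), 0.948 (Ctrl) and 0.881 (Prss1). Without cells of shared barcodes the ratio for Ctrc was 11.9 (10.1 to 13.9), and Ctrc was again the 1 member past 2, beside 5.09% of 648 genes higher and 31.2% lower.

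**Figure D4:**
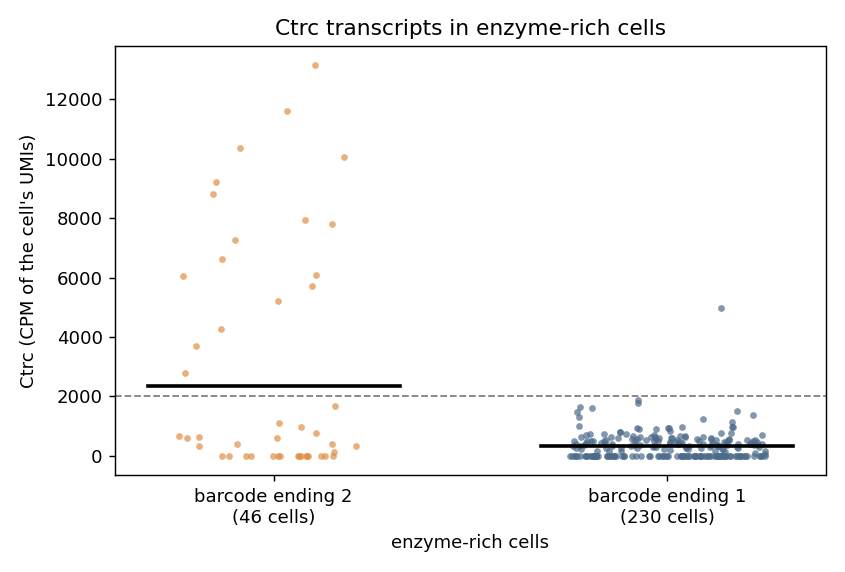
Ctrc level (CPM of the cell's UMIs, linear axis) in enzyme-rich cells with barcode ending 2 (left) and 1 (right). Points are cells, black bars the level of the summed UMIs, and the dashed line 2000 CPM; 17 of 46 cells with ending 2 and 1 of 230 cells with ending 1 lie above it.

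Most Ctrc UMIs with ending 2 lay in a subset of cells. Above 2000 CPM, a limit set after the values were seen, stood 17 of the 46 cells with ending 2 and 1 of the 230 cells with ending 1. The 17 cells had 276 Ctrc UMIs (7432 CPM; single cells 2775 to 13146, median 7250), against 33 UMIs (347 CPM, maximum 1684) in the other 29 cells with ending 2. With cells above 2000 CPM left out, the ratio between endings was 1.07, but these cells were chosen by their Ctrc, so a value nearer 1 is built in. None of the 17 cells had a shared barcode, and their median depth was 1880 UMIs, against 1602 in the 29. By construction the 17 cells differ in Ctrc, so the value to read is that of the other genes. Of 143 genes with at least 50 UMIs, 2.8% were past a ratio of 2: 2.1% were higher in the 17 cells and 0.699% were lower. Of 7 members tested there, Ctrc alone was past 2. Besides Ctrc, the genes past 2 were Mt2 (metallothionein, log2 ratio 1.49) and Gm5771 (1.09) upward and Gm8730 (-1.02) downward. The other 6 members tested had ratios of 0.617 (Prss3) to 1.06 (Ctrb1), and Tff2 had 6086 CPM in the 17 cells against 6328 CPM in the 29.

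The status of Ctrc differs between annotations: GENCODE M21 lists it as protein-coding and RefSeq (GRCm38.p6) as a transcribed pseudogene. The antisense gene Ctrcos overlaps it, and reads of the pair cannot be told apart if counting ignored strand, which the sources used here do not state. Ctrcos had 11 UMIs in enzyme-rich cells with ending 1 and 0 in the 46 with ending 2, which limits it there to 22.7 CPM. Whether the endings are different animals, and whether genotype at Ctrc differs between them, was not tested.

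In other cells, which serve as a measure of free RNA, the members were seen at a low level in every class. The 8 genes together had 9218 CPM in the 158 endothelial-like cells, 9069 CPM in the 20 macrophage or dendritic-like, 8528 CPM in the 100 B or plasma-like, 8319 CPM in the 81 T or NK-like and 7954 CPM in the 36 ductal-like cells. The 11 neutrophil-like cells had 6686 CPM, the 29 mesenchymal-like 5894 CPM and the 17 erythroid-like 4131 CPM. In this order each class overlapped the next within counting intervals, except that the erythroid-like class lay below the mesenchymal-like class. By ending, the level was 17661 CPM (16434 to 18956) in the 15 other cells with ending 2 and 7655 CPM (7495 to 7818) in the 437 with ending 1. Ductal-like cells are epithelial and pass the sort for EpCAM, and their CPM level lay among those of the other classes. Depth differed between classes. Its median was 1622.5 UMIs in B or plasma-like, 1800 in endothelial-like, 2320.5 in macrophage or dendritic-like and 2331 in T or NK-like cells. It was 3171 UMIs in ductal-like, 3559 in mesenchymal-like, 3562 in neutrophil-like and 5476 in erythroid-like cells. The part of depth in the order of the classes was not tested.

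**Figure D5:**
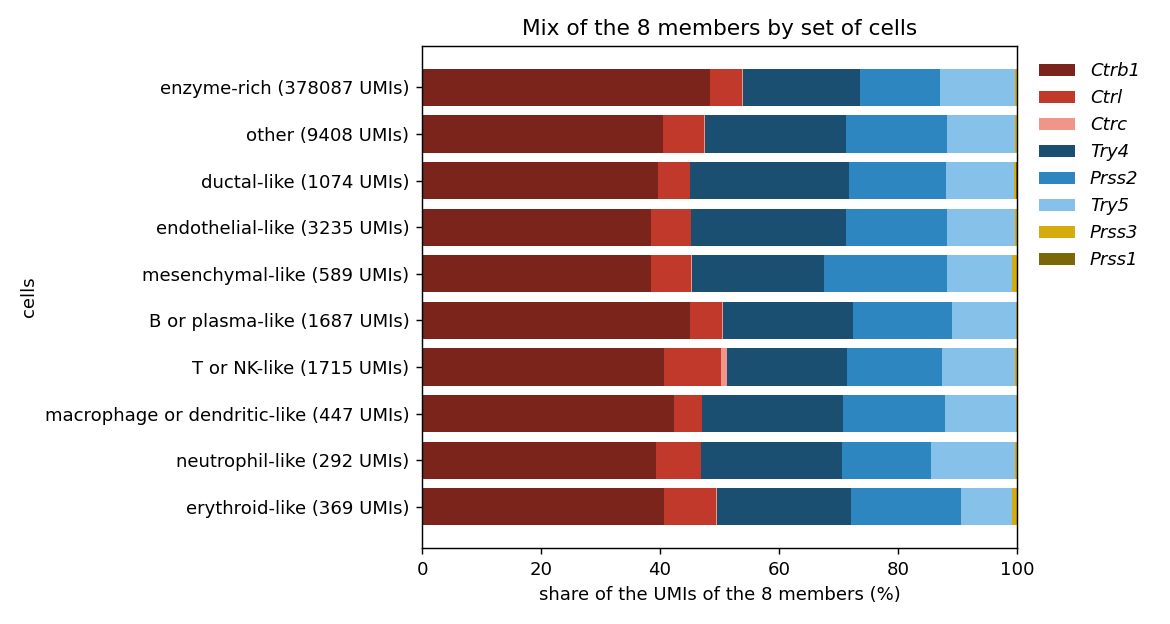
Share of each gene among the UMIs of the 8 members (x axis, %), in enzyme-rich cells (top), all other cells and the classes of other cells. Numbers in brackets are the member UMIs behind each bar; Ctrb1 took 48.4% in enzyme-rich cells and 40.5% in other cells.

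The mix of members in other cells was close to, but not the same as, that of enzyme-rich cells. Of the member UMIs of enzyme-rich cells, Ctrb1 took 48.4%, Try4 19.7%, Prss2 13.4%, Try5 12.7% and Ctrl 5.39%. Of those of other cells, Ctrb1 took 40.5%, Try4 23.7%, Prss2 16.9%, Try5 11.4% and Ctrl 6.83%. The distance between the mixes, the share of UMIs that would have to change gene, was 9.19 percentage points, with 5.64 for the B or plasma-like and 11.8 for the erythroid-like class at the ends. These 2 classes had 1687 and 369 member UMIs. The distance has no interval, and counting error raises it where UMIs are few. In the endothelial-like class, with 3235 member UMIs, it was 11.2. With ending 1, Ctrb1 took 48.3% in enzyme-rich cells and 39.5% in other cells, and Try4 took 19.4% in enzyme-rich cells and 24.2% in other cells. With ending 2, Ctrb1 took 48.9% (48.5 to 49.4) in enzyme-rich cells and 51.0% (47.4 to 54.6) in other cells, so its intervals overlapped. The order turned for Try4, which took 21.7% (21.3 to 22.0) in enzyme-rich cells and 18.1% (15.4 to 21.0) in other cells. Ctrc in other cells came to 25 UMIs in 13 cells. Of these, 14 UMIs were in 3 cells (6, 5 and 3 UMIs) of the T or NK-like class, in which the 15 enzyme genes took 9.96%, 8.21% and 9.56% of UMIs, just under the threshold.

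Of a list of 25 genes drawn up around trypsin regulation, 17 had a row and 12 had at least 50 UMIs. The list held protease inhibitors, cathepsins and receptors, and also genes such as Cftr that do not act on trypsin directly. Of the 12 genes, 2 were at least 2-fold higher in enzyme-rich cells, 7 at least 2-fold lower and 3 between, beside 3.85% higher, 85.3% lower and 89.1% either way among all tested genes. The trypsin inhibitor Spink1 had 7291 CPM in enzyme-rich cells and 114 CPM in other cells, a ratio of 63.8 (53.8 to 76.2). Serpini2, a pancreatic serpin, had 384 CPM in enzyme-rich cells and 8.53 CPM in other cells, a ratio of 45.0 (24.2 to 94.4). Cathepsin B (Ctsb), which activates trypsinogen in experimental pancreatitis, had 63.5 CPM in enzyme-rich cells and 266 CPM in other cells, a ratio of 0.239 (0.183 to 0.308). Cathepsin L (Ctsl), which degrades it, had 108 CPM in enzyme-rich cells and 158 CPM in other cells, a ratio of 0.681 (0.539 to 0.859). Per UMI outside the 15 enzyme genes the direction of Ctsl turned, with 264 CPM in enzyme-rich cells and 160 CPM in other cells, a ratio of 1.65 (1.30 to 2.08). On that scale Ctsb had 156 CPM in enzyme-rich cells and 270.3 CPM in other cells, a ratio of 0.577 (0.442 to 0.744) that no longer reached 2-fold. Scaled to UMIs outside the 15 enzyme genes, 2 of the 12 were higher, 3 lower and 7 between, beside 8.33% higher, 57.6% lower and 65.9% either way among all genes.

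Enzyme-rich cells were also divided by their level of Tff2, the gene behind the lineage label, and depth moved with these groups (median 2759 UMIs in the upper part, 1748 in the lower part and 1200 in cells without Tff2). The summed members had a median over cells of 309177 CPM in the 135 cells of the upper part of Tff2 levels, 341184 CPM in the 136 of the lower part and 380015 CPM in the 5 without a Tff2 UMI. As sums they had 313168 CPM in the upper part and 328929 CPM in the lower part, while Ctrb1 alone had 159202 CPM in the upper part and 149490 CPM in the lower part. The median of Ctrb1 over cells went the other way, with 165969 CPM in the upper part and 169402 CPM in the lower part. The part of depth in these differences was not tested. The median of Ctrl was 12662 CPM in the upper part, 17308 CPM in the lower part and 39234 CPM in the 5 cells without Tff2.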

How the data were processed

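The deposited table holds raw UMI counts for each gene in each cell, as its whole-number values show, and the authors' filters on cells and genes are not stated in the sources used here. The authors used Cell Ranger and mm10, per the submitters' processing notes, with no version or role stated. Of 14793 rows, 4 symbols on more than 1 row were summed. The members, gene lists and comparisons were chosen with earlier results of these data known.

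Counts were summed over sets of cells and scaled to CPM. Log2 ratios had 0.5 counts added to each sum, a floor of 50 UMIs over both sets and a fixed limit of 2-fold. Intervals are exact (Clopper-Pearson for shares, Poisson for levels and ratios), cover counting error only and have a level of 95%. A count of 0 was limited at 3 counts of the total. Depth was 2353008 UMIs over 728 cells. Thinning to 1000 UMIs left out 0 cells. Other cells were clustered with scanpy 1.11.5 without the 15 enzyme genes (2000 variable genes, 20 components, 15 neighbours, Leiden at resolution 0.5) and named from marker lists, each by at least 3 detected markers. Scrublet called 3 of 728 cells doublets (0.412%), and they were kept. Variation without counting error subtracts the binomial part of the variance. Coding sequences are from GENCODE M21 and were aligned with Biopython 1.88; promoters are from RefSeq. All 8 members, their close copies, the regulation list and genes among the 3 most like each member in rho were named; 1 gene is not reported here. Python 3.11.15, numpy 2.4.6, scipy 1.17.1 and pandas 2.3.3 were used, and the steps were tested on simulated data. Alternatives were other thresholds for enzyme-rich cells, the 7 other enzymes alone, depth, each barcode ending, shared barcodes, doublets, other denominators, floors and priors.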

Additional observations from a re-analysis of the deposited data

How the results depend on the processing

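No paired analysis was possible because cells could not be tied to the labelled replicates, and for that reason leaving out a replicate was not run. The share of UMIs from the 8 members in enzyme-rich cells (32.0%) was 31.5% with a threshold of 5%, 32.1% with 20%, 32.1% with the 7 other enzymes alone, 31.3% for ending 1, 37.9% for ending 2 and 31.7% without shared barcodes. In other cells it (0.803%) was 0.747%, 0.847% and 0.975% under the first 3 of these settings, 0.680% for cells of at least 2000 UMIs, 0.766% for ending 1, 1.77% for ending 2 and 0.921% as a mean over cells. The Ctrl share of chymotrypsinogen UMIs (9.99%) was 9.84% for cells of at least 2000 UMIs, 10.3% for ending 1 and 8.06% for ending 2. The median rho over pairs of members (0.17) was 0.054 for ending 2 and 0.054 as a share of the 15 genes, 0.26 per UMI outside them and 0.35 for the 5 abundant members, a choice made after seeing the data. The count of regulation genes past 2-fold (9 of 12 tested, beside 89.1% of all genes) was 5 of 12 outside the 15 genes, beside 65.9% of all genes. It was 14 of 17 with no floor and 2 for ending 2, where 15 other cells leave fewer UMIs to reach the floor. The share over all genes is not given for these 2 settings, so their counts cannot be set beside a background. The distance between mixes (9.19 points) was 6.21 with the 7 other enzymes alone, 8.16 for cells of at least 2000 UMIs and 6.00 for ending 2. The Ctrc ratio between endings (7.12) was 11.9 without shared barcodes and 1.07 without cells above 2000 CPM (nearer 1 by construction), both also chosen after seeing the data. Of 127 recomputed values of the 8 members, 75 stayed within their interval, 52 moved beyond it and 0 changed direction. Levels have no direction to change, and the ratios compare cells chosen on these genes, so the 0 is no check of the results. The low counts of Prss1 (80 and 2 UMIs) and Ctrc in other cells (25 UMIs) limit their ratios, the 46 cells with ending 2 limit the values by ending, and no value has a replicate check.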
